A study of Mus musculus with 8 samples.

Results

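Most Zbtb, Zkscan and Zscan genes encode zinc finger transcription factors, and their transcripts were followed here through the myoblast transition from proliferation to differentiation. The members were every gene whose mouse symbol starts with Zbtb, Zkscan or Zscan followed by a digit. The RefSeq annotation held 74 such symbols (42 Zbtb, 11 Zkscan and 21 Zscan), of which 71 were among the 27179 genes of the expression table. A filter on low values, which kept a gene with a deposited value of at least 25.1 in at least 2 libraries, was passed by 51 members (36 Zbtb, 7 Zkscan and 8 Zscan) and by 11406 genes in all. An m6A peak was listed on 52 members, among 9153 genes with a peak.

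The cells were C2C12 myoblasts, an immortalized mouse line derived from skeletal muscle that divides in rich serum and differentiates when serum is lowered. In growth medium (GM) the cells were sampled at 50% confluence in high glucose DMEM with 10% fetal bovine serum. For differentiation medium (3d DM), cultures past 90% confluence received 2% horse serum and were sampled after 3 days. Each state had 2 input libraries, which served as RNA-seq, and 2 libraries of m6A-immunoprecipitated mRNA (IP). No genotype or drug differed between the groups. All of the libraries came from one clonal line on collagen, and no source states whether the replicates were separate cultures, so that p-values measure only the spread between these libraries.

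Zinc finger proteins of the Zbtb family carry an amino-terminal BTB domain, through which they pair and recruit corepressors such as NCOR and SIN3 with histone deacetylases. Zscan and Zkscan proteins carry a SCAN domain instead, a dimerization surface, and most Zkscan proteins also hold a KRAB domain, which in many zinc finger proteins binds TRIM28. In all of these families an array of C2H2 zinc fingers reads DNA, and the fingers are often encoded by a single long exon. N6-methyladenosine (m6A) is placed on mRNA by the METTL3 methyltransferase within a short consensus called DRACH (A, G or T, then A or G, then A and C, then A, C or T), and is most common in long exons and near stop codons. Among the members, ZBTB18 (also called RP58) has a known role in this tissue, as a repressor that muscle differentiation requires and that acts on the Id2 and Id3 genes.

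The sequences below, read from the GRCm38 genome, are the places where the m6A signal of these transcripts was measured in all 4 peak lists. The first is a stretch of 201 coding bases in exon 2 of Zbtb18 (chr1:177447859-177448059, plus strand), from the middle of a peak shared by all 4 lists. Zbtb18 is shown at length because it was the single member whose transcript level was called different between the states. Capitals mark the 5 DRACH matches.

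Zbtb18 coding stretch: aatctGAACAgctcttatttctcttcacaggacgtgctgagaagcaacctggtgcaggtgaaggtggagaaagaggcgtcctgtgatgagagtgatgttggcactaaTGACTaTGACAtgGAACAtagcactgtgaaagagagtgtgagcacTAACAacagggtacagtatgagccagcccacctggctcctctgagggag

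The next sequences are 29-base windows centred on GGACT, the form of DRACH that is methylated most often, in member regions found in every list. Each window is the GGACT nearest the middle of its region, with GGACT in capitals, and 8 of the 9 regions that hold GGACT are shown, without that of Zbtb7c. The windows of Zbtb18 (1), Zbtb2, Zbtb38 (2), Zbtb4, Zbtb7a and Zkscan6 lie in coding sequence, and those of Zbtb18 (2) and Zbtb38 (1) lie in the 3′ UTR. In the order printed they are chr1:177448047-177448075, chr1:177450003-177450031, chr10:4368542-4368570 (minus), chr9:96683754-96683782 (minus), chr9:96686296-96686324 (minus), chr11:69778424-69778452, chr10:81144990-81145018 and chr11:65828447-65828475.
Zbtb18 (1): tcctctgagggaGGACTcggtcttaaggg
Zbtb18 (2): cccaggctgaaaGGACTgaaccgccttga
Zbtb2: gcttggcagtggGGACTcagaagtaactg
Zbtb38 (1): aaggttatcagaGGACTcctgtttctcgc
Zbtb38 (2): agtgagtgaccaGGACTccactgataagc
Zbtb4: agcggggtcagtGGACTgccccgaggacg
Zbtb7a: caagggcgtcatGGACTactacctgaagt
Zkscan6: tttttcaccaaaGGACTcacacgggagag

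Motif matches in member regions are set beside those in the m6A regions of all genes, with no test of the difference. Of the 39 member regions found in all 4 lists, 36 (92.3%) held a DRACH match in the bases shared by the lists, against 93.8% of the 5756 regions of all genes with such shared bases. The density was 24.9 matches per kb in members and 23.7 per kb over all genes. GGACT was found in 9 member regions (23.1%) and in 36.4% of all regions, at 1.22 and 1.48 matches per kb, with a median shared length of 241 bases in members and 269 in all. The search was on the sense strand, which reads as the mRNA does, and every GGACT is also a DRACH match. A match is a description of the sequence and not a methylated site.

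The state of the cultures showed in genes outside the family. The dividing-cell markers Mki67, Top2a and Ccnb1 were called higher in GM (3 of 3), and the markers of differentiated muscle Myog, Myh3, Ckm, Mymk and Ttn were called higher in 3d DM (5 of 5). Of 10 markers of endothelium, blood, fat, bone and cartilage, only Sox9 passed the filter. Sox9 was at 1060 and 941 in GM versus 366 and 407 in 3d DM and was called higher in GM (log2 fold change 1.37 ± 0.44, adjusted p = 0.0138, limma). It made up nearly all of the sum of the 10, which was 1096 and 961 in GM versus 389 and 428 in 3d DM. Adipoq, Plin1 and Acan were listed at 0 in every library. GM replicate 1 held more of the differentiation markers than GM replicate 2, with Myog at 1008 and 221 and Ttn at 4063 and 621. Depth could not be read from the files, whose libraries were scaled to a common total, and a single entry made up 24.4 to 41.3% of that total. The deposited values leaned toward GM, with a median log2 fold change (GM minus 3d DM) of 0.22 over all tested genes. Rescaling by median-of-ratios factors brought that median to -0.0032. Values below are as deposited unless rescaling is named.

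Transcripts of the family changed little between GM and 3d DM. A single member of 51 was called at an adjusted p under 0.05 (limma with Benjamini-Hochberg adjustment), where 17.0% of all tested genes were called. Of the calls over all genes, 58.7% were higher in GM as deposited and 48.4% after rescaling. The log2 fold changes of the members ran from -1.43 to 1.32 around a median of 0.16, and 49 of the 51 (96.1%) lay within 1 log2 unit of no change, against 76.2% of all tested genes. Members were expressed below the typical gene, with a median value of 151 (range 32.2 to 885) against 292 over all tested genes, and lower values carry larger errors in this fit.

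**Figure D1:**
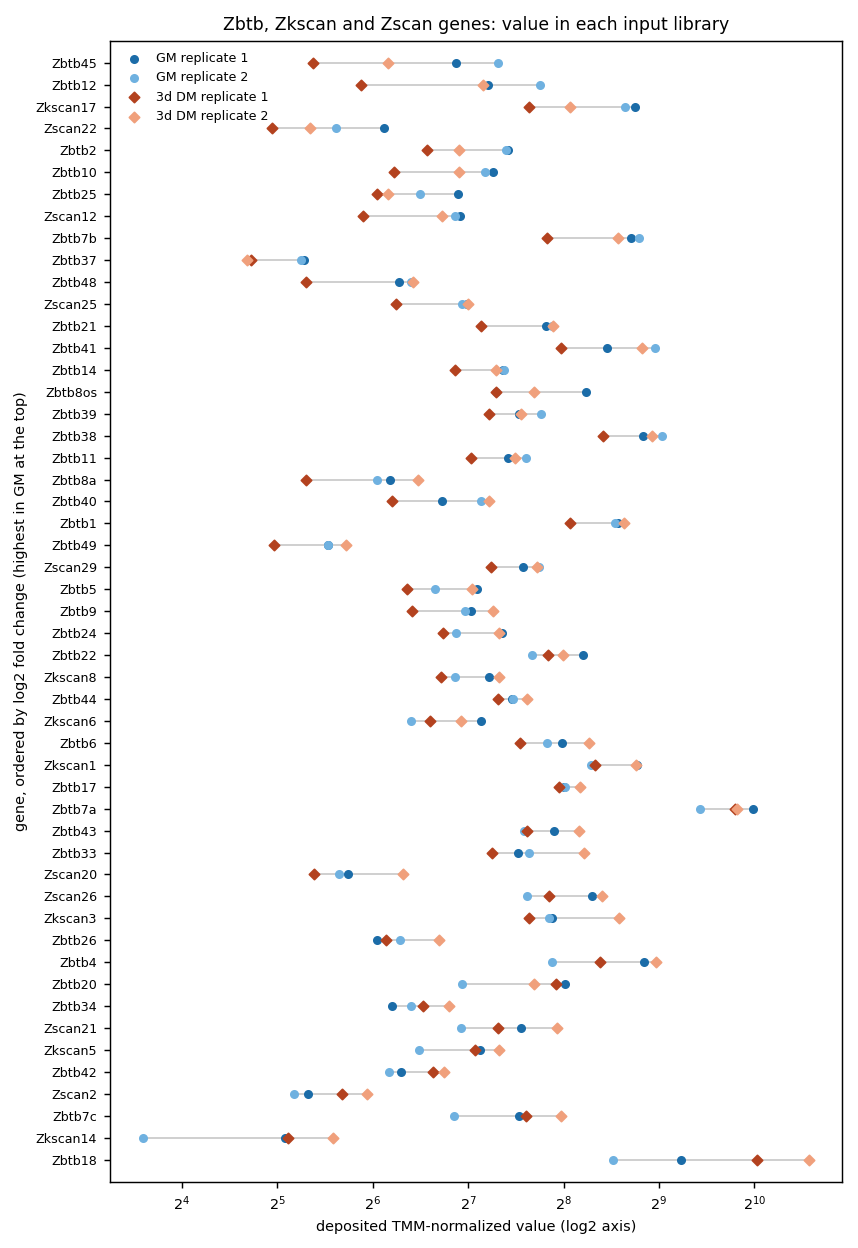
Deposited normalized value (log2 axis) of each of the 51 tested members in the 2 GM (circles) and 2 3d DM (diamonds) input libraries, with the genes ordered by log2 fold change and the grey line spanning the 4 values. Zbtb18, at the bottom, is the member with both 3d DM values far to the right of both GM values. In most other rows the states interleave, and 3d DM replicate 1 is the lowest of the 4 values in 33 of 51 rows as deposited (61.3% of all tested genes), and in 10 of 51 after rescaling (25.9%).

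Zbtb18 (Entrez 30928, chromosome 1, plus strand) was the member called. Its value was 601.5 and 366.3 in GM versus 1047 and 1525 in 3d DM. Both differentiated libraries exceeded both proliferating ones. The means were 484 ± 166 in GM and 1286 ± 338 in 3d DM (SD, n = 2), a ratio of 2.66, and the fit gave a log2 fold change of -1.43 ± 0.43 (SE) with an adjusted p of 0.00842 by limma. Of all tested genes, 7.01% were called in this direction. Zbtb18 also had the highest mean value of the family, 885, and the highest per kb of exon, 125. On the rescaled values the change was -1.65 (adjusted p = 0.00595, limma). The GM library with more Zbtb18 was replicate 1, the library that also held more Myog and Ttn, and the part of this in the result was not tested. The call was lost whenever 1 library was left out, and calls over all genes also fell in each of these fits. The log2 fold change stayed negative in all of these fits, from -1.78 to -1.07.

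Id2 and Id3, inhibitors of MyoD-family proteins that are known targets of ZBTB18, moved the other way. Id2 had values of 471 and 657 in GM versus 139 and 215 in 3d DM (log2 fold change 1.68 ± 0.46, adjusted p = 0.00247 by limma). Id3 had values of 573 and 1262 in GM versus 31.8 and 79.2 in 3d DM (4.05 ± 0.47, adjusted p = 9.5e-16 by limma). The states did not overlap in either gene. Leaving out single libraries took the call from Id2 each time and from Id3 once (without 3d DM replicate 1). Calls over all genes also fell in each of these fits.

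The member with the largest value in the other direction was Zbtb45, at 117.5 and 159.5 in GM versus 41.5 and 71.3 in 3d DM. Its states did not overlap, but the log2 fold change of 1.32 ± 0.52 had an adjusted p of 0.0653 (limma). Without the intensity trend in limma it would have been called (adjusted p = 0.0317). Zbtb45 was also the single tested member with no m6A peak in any list.

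Zbtb12, Zkscan17 and Zkscan14 followed in size, and none of them passed the test. Zkscan17 had values of 429 and 399 in GM versus 199 and 268 in 3d DM, a log2 fold change of 0.84 ± 0.46 (adjusted p = 0.232, limma). Zbtb12 had 148 and 216 in GM versus 58.7 and 143 in 3d DM (0.95 ± 0.50, adjusted p = 0.204, limma), and its states overlapped after rescaling. Zkscan14 stood at 33.9 and 12.1 in GM versus 34.7 and 48.1 in 3d DM (-0.97 ± 0.63, adjusted p = 0.345, limma), and its 2 GM values lay further apart than the means of the states.

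**Figure D2:**
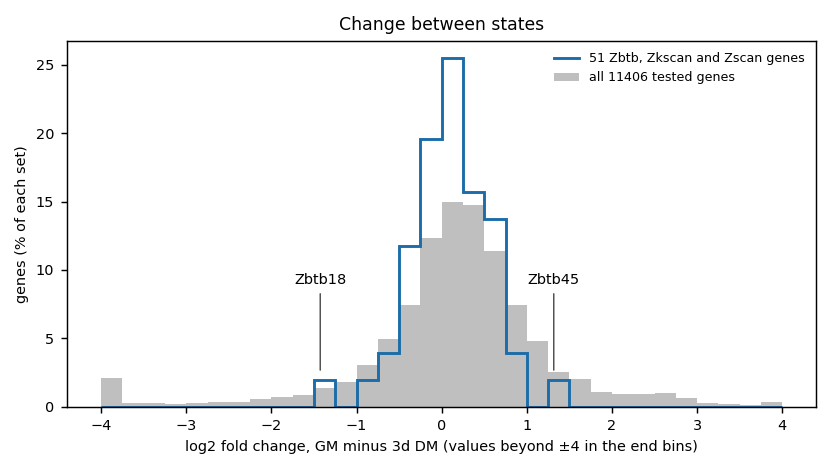
Distribution of the log2 fold change (GM minus 3d DM, x axis) as a share of each set (y axis, %), for all 11406 tested genes (grey bars) and the 51 tested members (blue outline). The members are concentrated near 0, with Zbtb18 at -1.43 and Zbtb45 at 1.32 as the 2 members beyond 1 log2 unit.

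Both GM values lay above both 3d DM values in 11 members, where 37.0% of all tested genes did so, and below them in 6, where 16.8% did so. On the rescaled values the counts were 8 (33.2% of all tested genes) and 19 (33.9%), so that the balance of directions turned with the scaling. The signs turned as well, since 31 of the 51 log2 fold changes were above 0 as deposited and 20 after rescaling, with the median moving from 0.16 to -0.06. At an unadjusted p under 0.05 (limma) there were 2 members, Zbtb18 and Zbtb45, where 26.2% of all tested genes passed, and 6 members after rescaling, where 38.2% passed. By family, the median was 0.20 for Zbtb, -0.02 for Zkscan and 0.01 for Zscan as deposited, with -0.03, -0.25 and -0.21 after rescaling. The Zkscan and Zscan genes had no call by limma on either scale. As deposited none of them had an unadjusted p under 0.05, while Zkscan17 and Zscan21 were among the 6 members after rescaling.

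The other members with a known role had no call. Zbtb42, which is close to Zbtb18 in sequence and is concentrated at the neuromuscular junction, was at 78.8 and 72.3 in GM versus 99.5 and 108 in 3d DM. The states did not overlap, but the log2 fold change of -0.45 (95% interval -1.47 to 0.57) did not pass the test. Zbtb20, a repressor of the liver and hippocampus, was at 258 and 122 in GM versus 242 and 207 in 3d DM, with the 2 GM libraries farthest apart. Zbtb16, which marks germline stem cells and innate-like T cells, was near 0 in every library.

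Zbtb7a, a repressor of fetal globin genes, had the second highest mean per kb of exon, with values of 1015 and 692 in GM versus 888 and 902 in 3d DM. The 3d DM values fell between the GM values, and the 95% interval of its log2 fold change ran from -0.94 to 0.75. Its paralog Zbtb7b (ThPOK), which directs the CD4 T cell lineage, was at 419 and 445 in GM versus 227 and 379 in 3d DM. Zbtb17 (Miz-1), the partner through which MYC represses genes, was at 256 and 258 in GM versus 248 and 288 in 3d DM. After rescaling, both 3d DM values of Zbtb17 lay above both GM values.

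The members known to bind methylated CpG sites are Zbtb33 (Kaiso), Zbtb4 and Zbtb38, and each was expressed in both states. Zbtb38 was at 455 and 522 in GM versus 342 and 487 in 3d DM. Zbtb4 was at 459 and 236 in GM versus 333 and 501 in 3d DM. Zbtb33 was at 184 and 200 in GM versus 152 and 297 in 3d DM. In all 3 genes the states overlapped as deposited, and Zbtb4 was higher in both 3d DM libraries after rescaling. Zbtb24, which is needed for DNA methylation at pericentromeric repeats, also overlapped, with 164 and 117 in GM versus 107 and 160 in 3d DM.

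Telomere-binding members were low to moderate. Zbtb48 (TZAP), which trims long telomeres, was at 77.7 and 84.3 in GM versus 39.3 and 85.7 in 3d DM. Zbtb10, which binds variant telomere repeats, was at 153 and 145 in GM versus 74.7 and 120 in 3d DM, with the GM values above both others and no call (adjusted p = 0.462, limma). Zbtb11, which is not known for telomere binding, was at 171 and 195 in GM versus 131 and 181 in 3d DM.

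Among the SCAN genes, Zkscan3, a repressor of autophagy and lysosome genes, was at 235 and 231 in GM versus 199 and 382 in 3d DM. Zkscan1 was at 435 and 312 in GM versus 323 and 433 in 3d DM, so that the states covered nearly the same range as deposited. Zkscan8 was at 149 and 116 in GM versus 105 and 161 in 3d DM, and Zscan21 was at 188 and 121 in GM versus 159 and 244 in 3d DM. The states overlapped in Zkscan1, Zkscan3, Zkscan8 and Zscan21 as deposited, and after rescaling both 3d DM values lay above both GM values in each. No SCAN member passed the test. Compared per kb of exon, the highest means after Zbtb18 and Zbtb7a (120) were those of Zbtb22 (94.4), Zkscan3 (76.8) and Zscan21 (74.1).

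The remaining 20 members in the table were below the filter, among them 8 at 0 in every library. The genes listed at 0 included Zscan10, a pluripotency factor, and several copies of Zscan4, which is known from the 2-cell embryo. Zscan4c and Zscan4f were listed with identical values, 1.04 and 1.00 in GM and 0 in 3d DM. Low values also matched between genes that are not copies, as Zbtb32 and Zscan18 were both at 3.82 and 4.37 in 3d DM. The match is therefore not evidence of reads shared between the Zscan4 copies. Zbtb46, a marker of dendritic cells and endothelium, was at 2.05 and 4.01 in GM versus 17.5 and 15.2 in 3d DM, and Zbtb32 was at 0 in both GM libraries and at 3.82 and 4.37 in 3d DM. Both states were separate in these 2 genes, which had no test because of the filter and were called higher in 3d DM when the filter was dropped. The rule also admitted genes that encode no zinc finger protein. Zbtb8os (archease, a cofactor of the tRNA ligase), named for its place opposite Zbtb8, was at 302 and 157 in GM versus 156 and 207 in 3d DM. Zbtb11os1, a long noncoding RNA, and the Zscan4 pseudogenes were not tested. Whether counting used the strand is not given in the sources used here, and reads of overlapping genes may then be shared.

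Related genes under other names were counted beside all tested genes. Of all tested genes, 17.0% were called and 26.2% had an unadjusted p under 0.05 (limma). After rescaling, 2647 of the 11406 were called. Of 8 BTB zinc finger genes named otherwise, 6 were tested and 1 was called, Bcl6, a repressor known from germinal centre B cells. Bcl6 was at 176 and 146 in GM versus 433 and 743 in 3d DM, with no overlap (log2 fold change -1.82 ± 0.46, adjusted p = 0.000858 by limma). It lost the call when any 1 library was left out, in fits where calls over all genes also fell. Of 12 SCAN zinc finger genes named otherwise, 9 were tested and none was called (1 at an unadjusted p under 0.05, with 1, Zfp369, called after rescaling). Of 14 corepressors and partners, including Ncor1, Sin3a, Hdac1, Cul3 and Trim28, all were tested and none was called (2 at an unadjusted p under 0.05, with 3 called after rescaling). Hdac1 came closest, at 1088 and 894 in GM versus 412 and 499 in 3d DM (adjusted p = 0.0582, limma).

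m6A peaks were found on nearly every expressed member. A peak is a stretch of transcript in which the IP library exceeded its own input by exomePeak, and each list came from 1 IP and 1 input library. Of the 51 tested members, 50 (98.0%) had a peak in at least 1 list, against 78.7% of all tested protein-coding genes. All 4 lists held a peak on 31 (60.8%), against 44.0% of all such genes and 40.4% of those whose mean value lay within the members' range. Of the 298 tested Zfp genes, the most similar set by name, 44.0% were in all 4 lists.

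The lists held a peak on 49 and 47 members in GM and on 49 and 33 in 3d DM. The list of 3d DM replicate 2 was the short one, also over all genes (7574 and 7164 genes in GM, 7471 and 6294 in 3d DM). The mean was 48 ± 1.41 in GM and 41 ± 11.3 in 3d DM (SD, n = 2), a difference within the spread of the 3d DM lists (exact permutation test, two-sided p = 1, smallest possible 0.333), and without 3d DM replicate 2 the difference of 7 turned to -1. Of the tested members, 12 (23.5%) had a peak in the other three lists but not in that one, where 7.66% of all tested protein-coding genes did. These were Zbtb5, Zbtb8a, Zbtb25, Zbtb33, Zbtb37, Zbtb39, Zbtb42, Zkscan5, Zkscan8, Zscan2, Zscan20 and Zscan22. Their median transcript value was 88.1 (range 32.3 to 208), against 207 (44.1 to 885) for the 31 members in all 4 lists, and the part of transcript level in the missing calls was not tested.

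**Figure D3:**
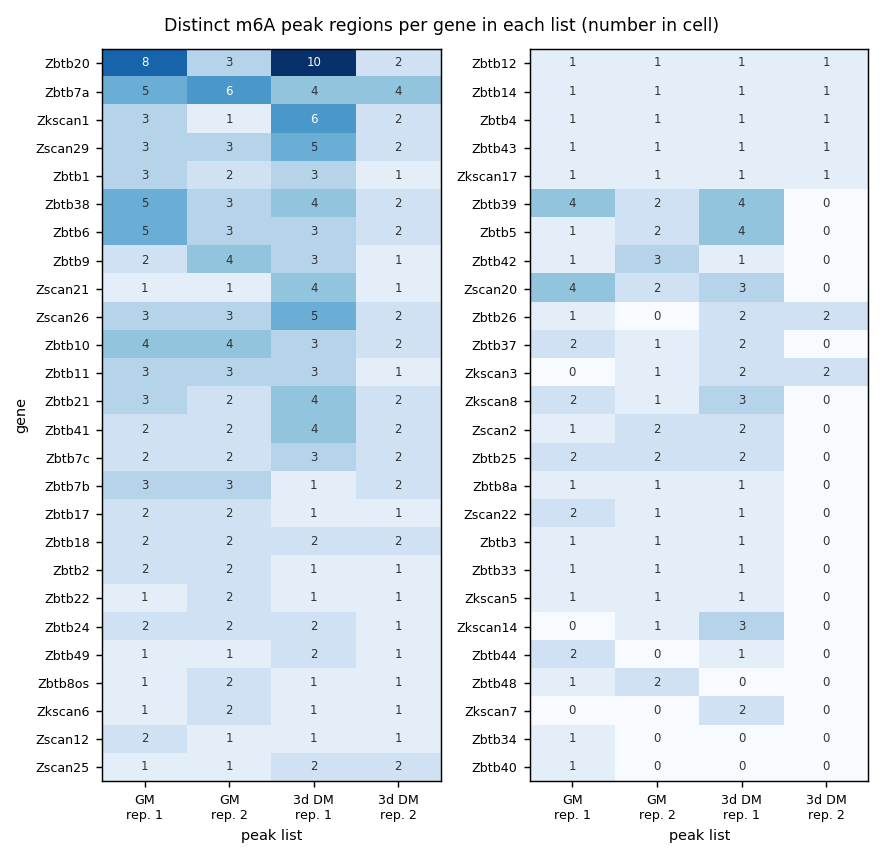
Number of distinct m6A peak regions on each of the 52 members with a peak (rows) in each of the 4 peak lists (columns), with darker cells for more regions. The column of 3d DM replicate 2 holds most of the zeros, and Zbtb20, Zbtb7a and Zkscan1 hold the most regions.

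A peak set that separated the states was seen in 1 member. Zbtb48 had peaks in both GM lists and in neither 3d DM list, a pattern found in 2.75% of all tested protein-coding genes. Its shared region lay in coding sequence (chr4:152026399-152026686, minus strand), with a fold enrichment of 9.03 and 4.30 in GM and P values of 0.000661 and 0.00219, where the largest P in any list was 0.0107. No member had peaks in both 3d DM lists and no GM list, where 1.80% of all such genes did. The transcript value of Zbtb48 was 77.7 and 84.3 in GM versus 39.3 and 85.7 in 3d DM. The part of transcript level, or of the short list of 3d DM replicate 2, in its missing calls was not tested.

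Lines of the lists that shared at least 1 exon base on a gene were merged into regions, of which the members had 167. Of these, 39 (23.4%) were in all 4 lists, 22 in 3, 38 in 2 and 68 (40.7%) in a single list, compared with 30.8% in all 4 and 37.8% in a single list over all genes. Regions per gene were 2.12 and 1.94 in GM versus 2.45 and 1.55 in 3d DM for members, and 1.75, 1.55, 1.76 and 1.49 for all genes with a peak. The most regions were on Zbtb20 (13), Zbtb7a (7), Zkscan1 (7), Zbtb39 (6) and Zscan29 (6). Zbtb20 had 8 and 3 regions in GM versus 10 and 2 in 3d DM, most of them in its long 3′ UTR, and 1 of the 13 was in every list.

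The regions called on members had a higher median fold enrichment than all regions in each list. The median fold enrichment, the ratio of IP over input, was 7.22 and 7.04 in GM versus 5.65 and 7.93 in 3d DM for members, against 4.37, 3.99, 3.85 and 4.25 for all genes. The order was the same for regions found in all 4 lists, with medians of 7.87, 7.04, 5.66 and 6.73 for members and 4.92, 4.36, 4.11 and 4.45 for all genes. Genes within the members' range of transcript value lay between, at 5.51, 4.94, 4.56 and 4.99. Zfp genes were close to the members, at 6.76, 6.58, 5.82 and 6.85. These are descriptions of 4 lists, with no test of the set.

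**Figure D4:**
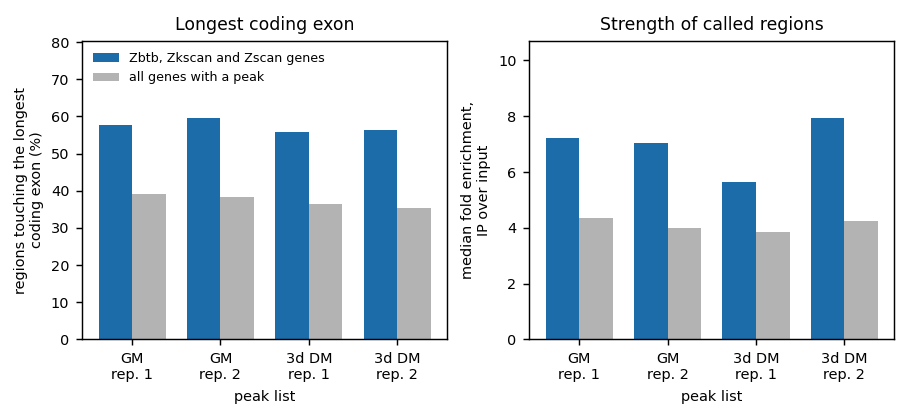
Left, share of peak regions that touch the longest coding exon of the transcript (%); right, median fold enrichment of IP over input, for members (blue) and all genes with a peak (grey) in each of the 4 peak lists. The blue bar is higher in every list, at 55.8 to 59.5% against 35.4 to 39.1% on the left and at 5.65 to 7.93 against 3.85 to 4.37 on the right.

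Peaks of the family often lay in a long coding exon. On the transcript with the longest coding sequence, 57.6% and 59.5% of member regions in GM versus 55.8% and 56.2% in 3d DM touched the longest coding exon, against 39.1%, 38.3%, 36.6% and 35.4% over all genes. Counted per region, so that a gene with many regions counts many times, that exon was longer for members. Its median was 1238 and 1155 bp in GM versus 1144 and 1166 bp in 3d DM for member regions. Over all regions it was 432, 399, 445 and 365 bp. By the same count, its median share of the coding sequence was 66.4 to 72.2% for member regions and 25.7 to 27.2% for all regions. The last exon was touched by 76.8 to 82.3% of member regions and by 63.1 to 68.7% of all regions. The midpoint lay within 200 bases of the stop codon in 20.2 to 29.2% of member regions and in 22.4 to 29.4% of all regions.

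By the labels of the lists, coding sequence was touched by 79.5% and 79.6% of member lines in GM and by 74.5% and 86.1% in 3d DM, against 72.7 to 75.5% over all genes. The 3′ UTR was touched by 45.7% and 44.8% in GM and by 47.5% and 34.3% in 3d DM, with the lowest share in the short list. Coding sequence averaged 79.5 ± 0.0763% in GM versus 80.3 ± 8.25% in 3d DM (SD, n = 2), so that the states differed by less than the spread of the 3d DM lists (exact permutation test, p = 1).

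m6A strength was compared between the states at the 39 regions, on 30 members, that had a line in every list. No member region passed the test at an adjusted p under 0.05, and neither did any of the 6055 regions of all genes (0%), by limma. At an unadjusted p under 0.05 there were 2 member regions, against 3.91% of all regions. Strength was higher in GM in 27 regions and lower in 12, with a median log2 difference (GM minus 3d DM) of 0.25, or a ratio of 1.19. Over all genes the median was 0.10. Both GM values lay above both 3d DM values in 8 member regions, where 21.5% of all regions did so, and below them in 3, where 9.40% did so.

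**Figure D5:**
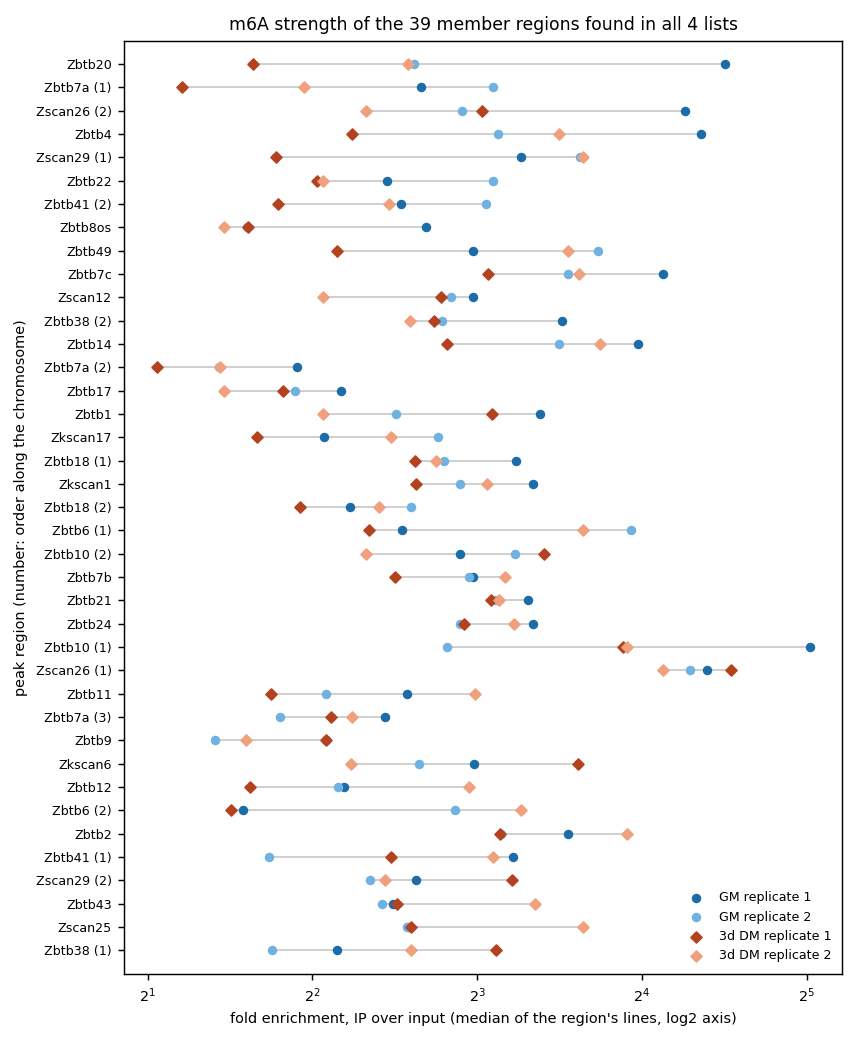
Fold enrichment of IP over input (log2 axis) at the 39 member regions found in all 4 lists, for the 2 GM (circles) and 2 3d DM (diamonds) lists, ordered by the difference between states, with a number for the order of a gene's regions along the chromosome. The libraries of a state are often as far apart as the states, as in Zbtb10 (1), whose GM values are 32.4 and 7.04.

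Zbtb18 carried 2 regions in each list, and the strength of neither was called different although its transcript level was. The region in exon 2, which spans most of the coding sequence and the stop codon, had a fold enrichment of 9.41 and 6.94 in GM versus 6.17 and 6.73 in 3d DM (log2 difference 0.33, 95% interval -0.60 to 1.26). On the transcript with lines in the most lists and then the most peak bases, the peak covered 1499 and 1499 exon bases in GM versus 1769 and 1559 in 3d DM. The region in the 3′ UTR had 4.69 and 6.05 in GM versus 3.79 and 5.28 in 3d DM (0.25, -0.70 to 1.20). The bases shared by the lists held 36 DRACH matches with 3 GGACT in the first of these, which includes the stretch printed above, and 6 with 2 GGACT in the 3′ UTR.

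The largest differences with separate states were at Zbtb20, Zbtb7a, Zbtb38, Zbtb22 and Zbtb41. Zbtb20 had a fold of 22.7 and 6.13 in GM versus 3.11 and 5.98 in 3d DM around its stop codon (log2 difference 1.45 ± 0.63, unadjusted p = 0.0433, adjusted p = 0.997 by limma). The difference rested on GM replicate 1, as the medians of the other lists were 3.11 to 6.13, and it was 0.51 without that list. In that gene the lines were not the same stretch in every list, since 3d DM replicate 2 had a line only in the 3′ UTR. On 1 transcript, the lines wholly in the 3′ UTR had a fold of 6.35 in GM replicate 2 versus 7.94 and 5.98 in 3d DM. GM replicate 1 had a single line there, of 25.4, that also reached coding sequence. The states were thus separate in the medians of the region and not at each of its lines.

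Zbtb7a had 6.32 and 8.55 in GM versus 2.31 and 3.86 in 3d DM at a region that joins its exons 2 and 3 (chr10:81144797-81152816, plus strand). The log2 difference was 1.30 ± 0.45 (unadjusted p = 0.0162, adjusted p = 0.997 by limma). On the transcript with lines in the most lists and then the most peak bases, each GM list held 1 line across both exons. Its fold was 8.44 and 8.48, while each 3d DM list held 2 lines. The 3d DM line at the stop codon had a fold of 8.08 and 8.10, close to the GM lines, and the line in exon 2 had 2.26 and 3.81. Taking the highest line of a region in place of the median left a difference of 0.11. The GGACT window printed for Zbtb7a lies in exon 2.

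Zbtb38, in the 3′ UTR, went the other way, with 4.43 and 3.38 in GM versus 8.66 and 6.05 in 3d DM (-0.90 ± 0.43, unadjusted p = 0.0623, adjusted p = 0.997 by limma). A second Zbtb38 region, in its coding exon, had 11.4 and 6.88 in GM versus 6.68 and 6.03 in 3d DM, so that the 2 regions of this gene pointed in opposite directions. Both hold a GGACT window shown above. Zbtb22 had 5.48 and 8.54 in GM versus 4.08 and 4.18 in 3d DM (0.73 ± 0.43), and this sign turned when the highest line of the region (-0.62) or only lines with P of at most 1e-05 (-0.014) were used. Zbtb41 had 5.80 and 8.31 in GM versus 3.46 and 5.51 in 3d DM near its stop codon (0.67 ± 0.45).

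Of the other regions, Zscan26 was high in every list, with 21.0 and 19.6 in GM versus 23.3 and 17.5 in 3d DM in its 3′ UTR. Zbtb21, whose coding sequence lies almost wholly in 1 exon of 3210 bp, was close in all 4 lists, with 9.91 and 8.67 in GM versus 8.47 and 8.77 in 3d DM. Zbtb4, at 20.5 and 8.75 in GM versus 4.72 and 11.3 in 3d DM, had a wide spread in both states, and the 95% interval of its difference ran from -0.39 to 2.15.

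Promoters of the tested members had a higher median CpG count than all RefSeq promoters, which were not filtered on expression. Promoters of tested genes alone were not compared, and the part of expression in this difference was not tested. RefSeq start sites gave 58 promoters for 44 of the 51 tested members, and the 250 bases before the start had a median GC content of 60.0% and 17 CpG sites, against 52.4% and 6 over all 32851 promoters. CAGCTG, a palindromic E-box of the kind that MyoD binds, was found in 5 of the 58 (Zbtb14, Zbtb18 and Zbtb2) and in 13.0% of all promoters. The 5 were not all separate sites. Zbtb18 windows from 177444403 and 177444411 overlap, hold the same 2 matches and lie wholly in exon, and that from 177445571 has 69 exon bases. The Zbtb18 window from 177442101, with 47 CpG sites, held 0 matches.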

How the data were processed

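Processed files of MeRIP-seq and its input RNA-seq from C2C12 myoblasts were used. The authors aligned trimmed reads to mm10 with HISAT2 (2.1.0) and called peaks with exomePeak, each IP library against its input, at P of at most 0.05. The deposited lists give a p-value and a fold, the ratio of IP over input, for every line. The largest p-value in them was 0.0107. The deposited expression table holds a TMM-normalized signal. Its columns sum to nearly one total and pairs of low values recur within a state (47.4% in GM and 55.0% in 3d DM of 2171 genes with values from 5 to 100, against 0.46% between states), so reads could not be recovered, depth is unknown and no counting error is given.

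Samples were grouped by their labels. Entrez IDs were matched to RefSeq symbols (98.7% of tested genes). Expression was tested with limma (3.58.1, R 4.3.3, intensity trend) on log2(value + 1), so that fold changes of low genes are understated, in 11406 genes with a value of at least 25.1 in at least 2 libraries. The prior degrees of freedom were infinite, so errors follow the trend of the genes and not a gene's own replicates. Peak strength was tested with limma without a trend on the median log2 fold of 6055 regions. Both tests were adjusted by Benjamini-Hochberg over all features and checked on simulated data. Single values were compared by exact permutation. Regions were placed on GENCODE M21 transcripts, and sequences came from GRCm38 and RefSeq. Python (3.11.15), SciPy (1.17.1) and pysam (0.24.0) were used. The members, gene lists and tests were chosen with earlier results of these data known. The genes named were those called in expression, the 5 regions with the largest strength difference and separate states, members with peaks in 1 state only, the 5 highest in level, the 5 with most regions, and 22 with a known role; others were named after their values were seen.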

Additional observations from a re-analysis of the deposited data

How the results depend on the processing

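The count of members called in expression, 1, stayed at 1 with a filter of 3 libraries, pseudocounts of 0.1 and 4, and median-of-ratios or trimmed-mean rescaling. It was 3 with no filter (Zbtb18, Zbtb46 and Zbtb32), 2 without the trend (Zbtb18 and Zbtb45) and from 0 to 0 when 1 library was left out, where a lone library is assumed to vary like the other state. Over all genes the calls numbered 1936, and 2647 and 2662 after the 2 rescalings, 1298 with the replicate block, and from 145 (without 3d DM replicate 1) to 1252 (without GM replicate 1) when 1 library was left out. With the replicate number as a block, 0 members were called in expression and 0 in strength (12 of 6055 regions). The numbers are shared by 2 pairs only and no label ties them to a batch. Same-numbered libraries deviated together with a correlation of 0.290 in expression and 0.114 in strength.

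The difference in member genes with a peak, 7 for GM minus 3d DM, ran from -1 to 15 without 1 list, the -1 being without 3d DM replicate 2, and was 3 at P of at most 1e-05, 9 at a fold of at least 4 and 12 for transcripts found in both lists of a state. No strength setting called a member region, and the median difference of members ran from 0.05 to 0.46. Of the 5 regions named for strength, the sign turned only at Zbtb22 (-0.62 with the highest line and -0.014 at P of at most 1e-05). The coding share of member lines differed between the states by -0.79 points, and by -3.42 with single-label lines (exact permutation p = 1 for both). At P of at most 1e-05 it was -3.88, with 80.4% and 80.4% in GM versus 83.1% and 85.5% in 3d DM, so that the states were separate (exact permutation p = 0.333, the smallest possible). The Zbtb18 log2 fold change was negative under all 12 alternatives and was not called in 5 of them.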
